A study of Homo sapiens with 8 samples.

Results

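The p53 target genes are a list of 41 genes taken as targets of the transcription factor p53. Whether p53 binds and switches on each of them was not measured here. They were chosen by name, as probes whose gene name equals one of 41 symbols, out of 42072 genes named on the array. All 41 were measured, 40 by the gene name on the array and TIGAR by its RefSeq accession, since the array still carries its old name. Each gene was read by its brightest probe, and 18 of the genes had more than 1 probe.

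Gene expression was measured on 8 Agilent arrays with 2 colours. Mock cells, which received none of the microRNAs or small interfering RNAs, supplied the RNA labelled with Cy3. Transfected cells of the same line supplied the RNA labelled with Cy5. The lines were A498 and 786-O, both renal cancer, HCT116, colorectal cancer, and MDA-MB-231, breast cancer. A498 and 786-O each received miR-139-5p on 1 array and miR-139-3p on another, HCT116 received miR-490-5p on 1 array and miR-490-3p on another, and MDA-MB-231 received the small interfering RNAs si-GINS1_1 and si-GINS1_2, both aimed at GINS1, a subunit of the replicative helicase, on 1 array each. No other allele or agent is named in the labels. A498 and HCT116 were taken as p53 wild-type lines and 786-O and MDA-MB-231 as p53 mutant lines. That status is general knowledge of these lines, it is not in the labels and the arrays do not measure it. Each line is 1 established line, so a wild-type or mutant group is a pair of lines that differ in tissue and in everything else that sets cell lines apart, and p53 status cannot be told apart from those differences.

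p53 is kept scarce in resting cells because one of its own targets, the ubiquitin ligase MDM2, marks it for destruction. Damage to DNA frees p53, which then binds a pair of consensus decamers near its target genes and raises their transcription. The products stop the cell cycle (CDKN1A, the inhibitor of cyclin-dependent kinases), drive apoptosis (BBC3, also called PUMA, and BAX), repair DNA (DDB2, XPC) and adjust metabolism (TIGAR, SESN1), while MDM2 and the phosphatase PPM1D switch p53 off again.

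The agents other than the siRNAs were mature microRNAs. Each microRNA acts on transcripts that match its seed, bases 2 to 8, which is in capitals here. The sequences are RefSeq's, with positions on GRCh38.p14, and the 4 seeds differ from each other.
hsa-miR-139-5p (chr11:72615102-72615124, minus strand): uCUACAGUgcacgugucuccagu
hsa-miR-139-3p (chr11:72615066-72615088, minus strand): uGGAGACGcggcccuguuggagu
hsa-miR-490-5p (chr7:136903205-136903224, plus strand): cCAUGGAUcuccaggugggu
hsa-miR-490-3p (chr7:136903242-136903263, plus strand): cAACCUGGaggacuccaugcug

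Of the 58201 probes, 24983 to 29687 gave a signal well above background on an array. The 2 mock channels of a line gave nearly the same values, with an SD of their difference over all genes between 0.0534 and 0.0782 log2 units, and the largest difference for any p53 target gene was 0.33, for SUSD6 in A498. GINS1 checked the labels: its log2 ratio was -1.31 with siRNA 1 and -1.92 with siRNA 2, against -0.11 to 0.55 on the other arrays. Cell type markers separated HCT116, with EPCAM at 11.69 and CDX2 at 7.62, from the other lines, where EPCAM was between 5.97 and 7.89 and CDX2 at 5.73 to 5.75. PAX8, a renal marker, was 8.11 in A498 and 8.06 in 786-O against 6.31 and 6.71 in the other lines, and the renal marker CA9 and the gut markers VIL1 and LGALS4 were not well above background in the lines they should mark, apart from 1 of 2 arrays of 786-O for CA9. Vimentin (VIM) was 14.76 in A498, 15.10 in 786-O and 14.67 in MDA-MB-231, and 6.76 in HCT116. ESR1 and PGR, hormone receptors of breast tissue, lay between 5.72 and 6.09 in every line. The breast receptor ERBB2 was not low, at 8.48 in MDA-MB-231, 8.48 in 786-O, 8.49 in HCT116 and 9.78 in A498. CD44, a further marker of mesenchymal breast cells, did not single out MDA-MB-231. It was 14.18 in A498, 13.14 in MDA-MB-231, 12.32 in 786-O and 12.28 in HCT116.

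In mock cells, the first question was whether the p53 target genes differed between the wild-type and the mutant lines. Levels here are log2 Cy3 signals after quantile normalization, averaged over the 2 mock channels of a line. An offset of 50 was added to the signals, so that a probe without signal reads about 5.7 and differences between dim probes come out smaller than they are. In 22 of the 41 genes both wild-type lines lay above both mutant lines, and in 1, CCNG2, both lay below. Over all 19462 genes that could be tested, 14.4% had both wild-type lines above and 14.8% had both below. The median difference over the 41 genes was 0.86 log2 units in favour of the wild-type lines, against -0.00128 over all probes tested. The arrays read bulk RNA, so a higher level in every cell and a larger share of cells with the transcript cannot be told apart. The 41 genes were higher in A498 than in 786-O in 36 cases and higher in HCT116 than in MDA-MB-231 in 28, where the shares over all tested genes were 47.6% and 51.7%.

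**Figure D1:**
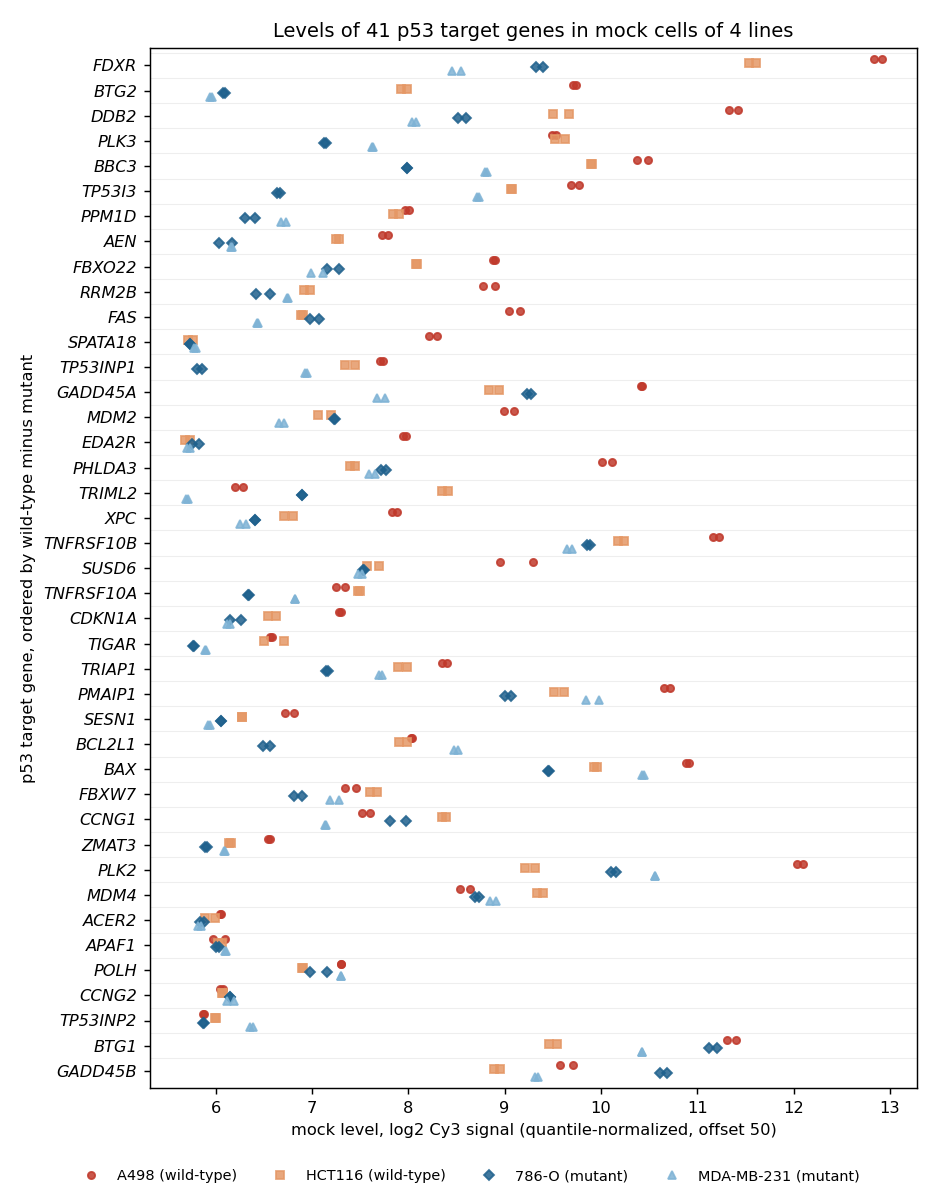
Level of each p53 target gene in mock cells (log2 Cy3 signal), with 1 point for each of the 2 mock channels of A498 and HCT116 (p53 wild-type) and of 786-O and MDA-MB-231 (p53 mutant), ordered by the difference between the groups. For FDXR, BTG2, DDB2, PLK3 and BBC3 at the top all wild-type points lie to the right of all mutant points, while FAS, PHLDA3, SPATA18 and EDA2R stand out in A498 alone.

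None of the 39 genes tested passed an adjusted p of 0.05 in limma's fit on the means of 4 lines, and neither did any of the 25573 probes (0%). At an unadjusted p under 0.05 there were 10 p53 target genes, all higher in the wild-type lines, against 2.2% of all probes higher and 2.42% lower. These were FDXR, BTG2, DDB2, PLK3, BBC3, PPM1D, AEN, FBXO22, TNFRSF10A and TIGAR. Lines were the replicates, 2 against 2, and for a single gene a permutation of so few lines cannot give a two-sided p under 0.333. SPATA18 and EDA2R were not tested, because they were well above background only in A498. In 20 of the 22 genes the gap between the groups was larger than the largest difference between mock channels of a line for the same gene, and in 7 it was 1 log2 unit or more. Neither count was made over all genes, so they do not set the p53 target genes apart. Whether the 2 mock channels of a line came from separate cultures is not stated, so their difference may hold technical spread alone. Of the 8 separated genes with several probes, 6 were separated at every probe.

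The genes of metabolism, redox control and autophagy held the largest difference. FDXR, the ferredoxin reductase of the mitochondrial electron chain that feeds steroid and iron-sulphur synthesis, read 12.88 in A498, 11.57 in HCT116, 9.36 in 786-O and 8.50 in MDA-MB-231. The lower of the wild-type lines lay 2.21 log2 units above the higher of the mutant lines. The difference was 3.30 ± 0.61 (SE, n = 2 lines a group, limma unadjusted p = 0.0086, adjusted p = 0.9999). This 9.82-fold difference ranked 15th of the 25573 probes tested in the direction of the wild-type lines. BTG2, a gene of cell cycle arrest, exceeded FDXR with an offset of 10 (4.05 against 3.42) and without background correction (3.85 against 3.41). The same held with the scanner's processed signal (5.22 against 3.53). FDXR stayed above BTG2 with scaling to the 75th percentile and with gene medians. TP53I3, a quinone oxidoreductase first found as a p53-induced gene, read 9.73, 9.07, 6.65 and 8.72 in the same order of lines, so that MDA-MB-231 came within 0.35 of HCT116. Its second probe gave 9.42, 8.51, 6.38 and 8.06, the same order. TP53INP1, a nuclear protein that promotes autophagy and cell death, read 7.72 in A498, 7.40 in HCT116 and 6.94 in MDA-MB-231, and in 786-O it was not well above background. The mean of the other 3 lines was at least 2.79-fold the level in 786-O. TIGAR, which lowers fructose-2,6-bisphosphate, read 6.57 and 6.61 in the wild-type lines and 5.89 in MDA-MB-231, and it was not well above background in 786-O. SESN1, an inhibitor of mTORC1, read 6.76, 6.27, 6.06 and 5.93, and ACER2, a ceramidase of the Golgi, 6.05, 5.94, 5.86 and 5.83. ACER2 was dim, and its gap of 0.08 was smaller than the difference between mock channels. In all, 6 of these 8 genes had both wild-type lines above, with a median difference of 0.97. For TP53INP1 and ACER2 this held only at the brightest probe, since the second probes overlapped, at 6.02, 6.0, 5.77 and 6.01 for TP53INP1 and at 5.91, 5.85, 5.86 and 5.89 for ACER2. The exceptions were TP53INP2, at 5.87, 6.0, 5.87 and 6.37, and SPATA18, a protein of mitochondrial quality control, at 8.26 in A498 and 5.73 to 5.79 elsewhere. In SPATA18 the A498 level was at least 5.35-fold the mean of the other lines.

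Among the genes of cell cycle arrest, BTG2, an antiproliferative partner of the mRNA deadenylase, showed the widest difference. It read 9.73 in A498, 7.95 in HCT116, 6.08 in 786-O and 5.95 in MDA-MB-231, a difference of 2.82 ± 0.69 (SE, limma unadjusted p = 0.020). Its relative BTG1 showed nothing of the kind, at 11.35, 9.51, 11.16 and 10.43. PLK3, a stress-responsive polo-like kinase, read 9.51 and 9.57 in the wild-type lines against 7.13 and 7.63 in the mutant lines. The wild-type lines nearly coincided, and its difference of 2.16 ± 0.23 had the lowest unadjusted p of the 41 genes (0.0014, adjusted p = 0.998 in limma). The related kinase PLK2 overlapped between the groups, with A498 highest at 12.07 and HCT116 lowest at 9.26. CDKN1A, which encodes p21, read 7.29, 6.58, 6.20 and 6.13, in the order of the groups with a difference of 0.76 ± 0.30. Its single probe was dim in all lines, and the size of the difference moved with the processing. It was 1.33 with an offset of 10, 1.21 without background correction, 1.88 with the scanner's processed signal and 0.72 with scaling to the 75th percentile. GADD45A, a stress sensor that binds PCNA, read 10.42, 8.89, 9.25 and 7.72, and GADD45B read 9.64, 8.92, 10.65 and 9.33, with 786-O highest. CCNG1, a cyclin that recruits a phosphatase to MDM2, read 7.56, 8.37, 7.89 and 7.14, and the 4 levels of its relative CCNG2 lay between 6.06 and 6.15. Thus 3 of the 9 arrest genes had both wild-type lines above, with a median difference of 0.45.

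In the feedback group 3 of 5 genes had both wild-type lines above. PPM1D, a phosphatase that removes activating phosphates from p53, read 7.99 and 7.87 against 6.36 and 6.70, a difference of 1.40 ± 0.19 (unadjusted p = 0.0031 in limma). FBXO22, the F-box protein of a ligase that acts on methylated p53, read 8.89, 8.08, 7.22 and 7.05, and FBXW7, the F-box protein of a ligase for cyclin E and MYC, 7.40, 7.63, 6.86 and 7.24. MDM2 depended on the probe. Its brightest probe read 9.04 in A498, 7.13 in HCT116, 7.24 in 786-O and 6.68 in MDA-MB-231, so that HCT116 and 786-O overlapped. The other 2 probes separated the groups, one at 8.78, 7.26, 6.06 and 6.44 and the other at 8.04, 6.54, 5.94 and 6.08. MDM4, the inactive relative that binds p53 beside MDM2, was highest in HCT116 at 9.37 and between 8.59 and 8.88 in the other lines.

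Of the 12 genes of apoptosis, 5 had both wild-type lines above and none had both below. BBC3 read 10.44, 9.90, 7.99 and 8.81, a difference of 1.77 ± 0.40 (unadjusted p = 0.015 in limma). AEN, an exonuclease active in apoptosis, read 7.76 and 7.27 against 6.10 and 6.16, a difference of 1.38 ± 0.23, and its second probe showed the same order at 6.86, 6.67, 5.95 and 6.04. The death receptor TNFRSF10A was 7.30 and 7.48 against 6.34 and 6.82, and its relative TNFRSF10B was 11.19 and 10.21 against 9.87 and 9.68. TRIAP1, a small mitochondrial lipid carrier that restrains apoptosis, read 8.38, 7.94, 7.16 and 7.71. The pore former BAX read 10.90, 9.94, 9.45 and 10.44, its antagonist BCL2L1 8.04, 7.94, 6.53 and 8.49, and PMAIP1, also called NOXA, 10.69, 9.56, 9.04 and 9.91. In these 3 genes MDA-MB-231 lay above HCT116. The second probe of BAX, much dimmer, read 6.48, 6.45, 6.09 and 6.40 and so did separate the groups, as did the second probe of CCNG1 at 6.62, 6.72, 6.47 and 6.27. APAF1, the scaffold of the apoptosome, lay between 6.02 and 6.10 in every line.

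A pattern of its own was a high level in A498 with the other 3 lines close together. The death receptor FAS read 9.10 in A498 and 6.43 to 7.02 in the others, PHLDA3, an inhibitor of AKT, 10.06 against 7.42 to 7.74, and EDA2R, a receptor of the TNF family, 7.96 against 5.70 to 5.79, where it was not well above background. EDA2R in A498 was at least 4.36-fold its mean in the other lines. RRM2B, the p53-inducible subunit of ribonucleotide reductase, read 8.84 in A498, 6.95 in HCT116, 6.49 in 786-O and 6.75 in MDA-MB-231. A498 was the highest of the 4 lines for 29 of the 41 genes, where 23.2% of all tested genes had A498 highest. HCT116 lay above both mutant lines for 25 of the 41, against 36.3% of all tested genes. Without A498 the median difference of the 41 genes was 0.41, and without HCT116 it was 1.33.

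The 4 DNA repair genes included DDB2, the damage sensor of nucleotide excision repair, which read 11.38, 9.59, 8.55 and 8.06, a difference of 2.18 ± 0.72. XPC, which acts beside it, read 7.85, 6.75, 6.41 and 6.28. POLH, a polymerase that copies past ultraviolet lesions, lay between 6.90 and 7.30 with no order. Of the remaining genes, ZMAT3, an RNA-binding zinc finger protein, read 6.55, 6.15, 5.90 and 6.09. SUSD6 read 9.12 in A498 and between 7.50 and 7.63 in the other lines. TRIML2 was highest in HCT116 at 8.38, with 6.89 in 786-O and 6.24 in A498, and it was not well above background in MDA-MB-231.

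**Figure D2:**
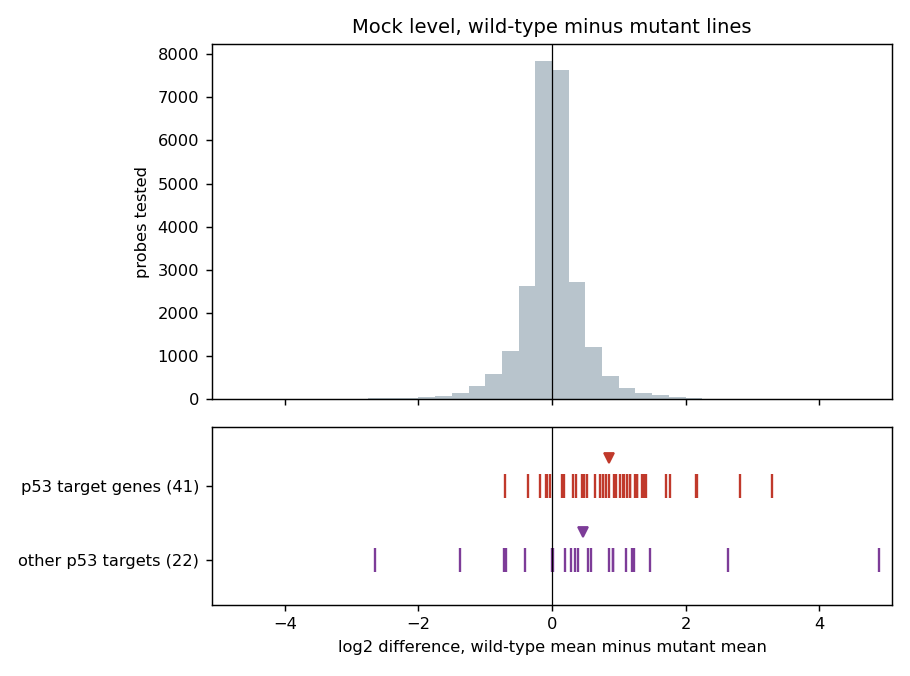
Mock level of the wild-type lines minus that of the mutant lines, as a histogram over the 25573 probes tested (values past 5 in either direction are in the end bins) and as 1 tick per gene for 2 lists, with a triangle at each list's median. The p53 target genes have a median of 0.86 and reach 3.30, and the median of the other p53 targets is 0.47.

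The histogram of differences sets the 41 genes beside a further list. The 22 other p53 targets are genes also taken as targets of p53 but not among the 41. They had both wild-type lines above in 9 cases and both below in 3, with a median difference of 0.47. GDF15, a secreted stress cytokine, read 15.46 in A498, 14.51 in HCT116, 11.48 in 786-O and 8.69 in MDA-MB-231. That difference of 4.89 ± 1.13 was the largest of all 25573 probes in the direction of the wild-type lines. The lower ones were THBS1, a secreted matrix protein, at 6.72, 6.72, 9.37 and 9.39, the lysosomal enzyme FUCA1 and the repressor E2F7.

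The promoters of the genes were searched for the p53 consensus decamer (purines, a C, a pair of A or T bases, a G and pyrimidines), because p53 binds pairs of such decamers. RefSeq promoters, 250 bases before to 50 bases after a start site on GRCh38.p14, were at hand for 34 of the 41 genes. An exact match to the decamer on either strand, which read the same for this palindromic consensus, lay in the promoter of 6 of the 34 genes, against 8.06% of all 27305 genes. A pair of decamers at most 13 bases apart, with at most 2 mismatches in all and an unbroken core, lay in 3 of the 34, against 1.81% of all genes. The matches gave 6 stretches, in FDXR, DDB2, AEN, SESN1, FAS and PLK2. FDXR, DDB2 and AEN are among the 7 genes with a gap of 1 log2 unit or more between the groups of lines. The rest of these 7, BTG2, PLK3, BBC3 and PPM1D, were searched too and had neither an exact decamer nor a pair. The decamers are in capitals, and each stretch runs 5′ to 3′ in the direction of the gene.
FDXR (chr17:74872986-74873015, minus strand): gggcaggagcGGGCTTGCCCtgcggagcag
DDB2 (chr11:47214974-47215003, plus strand): ggtttGAACAAGCCCtGGGCATGTTTggcg
AEN (chr15:88621301-88621330, plus strand): gagccGGGCTTGCCCGGGCATGTGGgagct
SESN1 (chr6:109009018-109009047, minus strand): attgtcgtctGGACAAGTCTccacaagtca
FAS (chr10:88991304-88991333, plus strand): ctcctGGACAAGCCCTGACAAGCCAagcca
PLK2 (chr5:58460199-58460228, minus strand): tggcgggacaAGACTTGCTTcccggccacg
The pair in DDB2 has 0 mismatches and a spacer of 1 base and starts 5 bases after the start site. The pairs in AEN and FAS have 2 mismatches each and no spacer. The decamer of FDXR starts 11 bases before its start site. FDXR, DDB2, AEN and SESN1 had both wild-type lines above, while FAS was high in A498 and PLK2 overlapped between the groups. A match is a description of these windows, and no binding was measured.

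The next question was whether transfection moved the p53 target genes, and whether it did so differently in wild-type and mutant lines. Over the mean log2 ratio of each line, none of the 33 genes that were well above background on every array passed the test, and neither did any of 20636 probes (0%). At an unadjusted p under 0.05 stood 1 of the 33, POLH, at 0.45 ± 0.13 (SE, n = 2 lines a group), beside 284 of all probes. The median difference of the 41 genes was 0.05, against -0.01 over all probes tested. Among the 33 genes tested the extremes were FDXR at -0.39 ± 0.33, GADD45A at -0.36 ± 0.33 and SUSD6 at -0.35 ± 0.26 at one end, and POLH, BAX at 0.33 ± 0.18 and PLK2 at 0.31 ± 0.55 at the other. TRIML2 at 0.77 and TP53INP1 at 0.73 lay higher but were not tested, because they were not well above background on every array. The agents differed between the lines, so this comparison sets different transfections side by side and line and agent cannot be told apart, except between the renal lines.

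**Figure D3:**
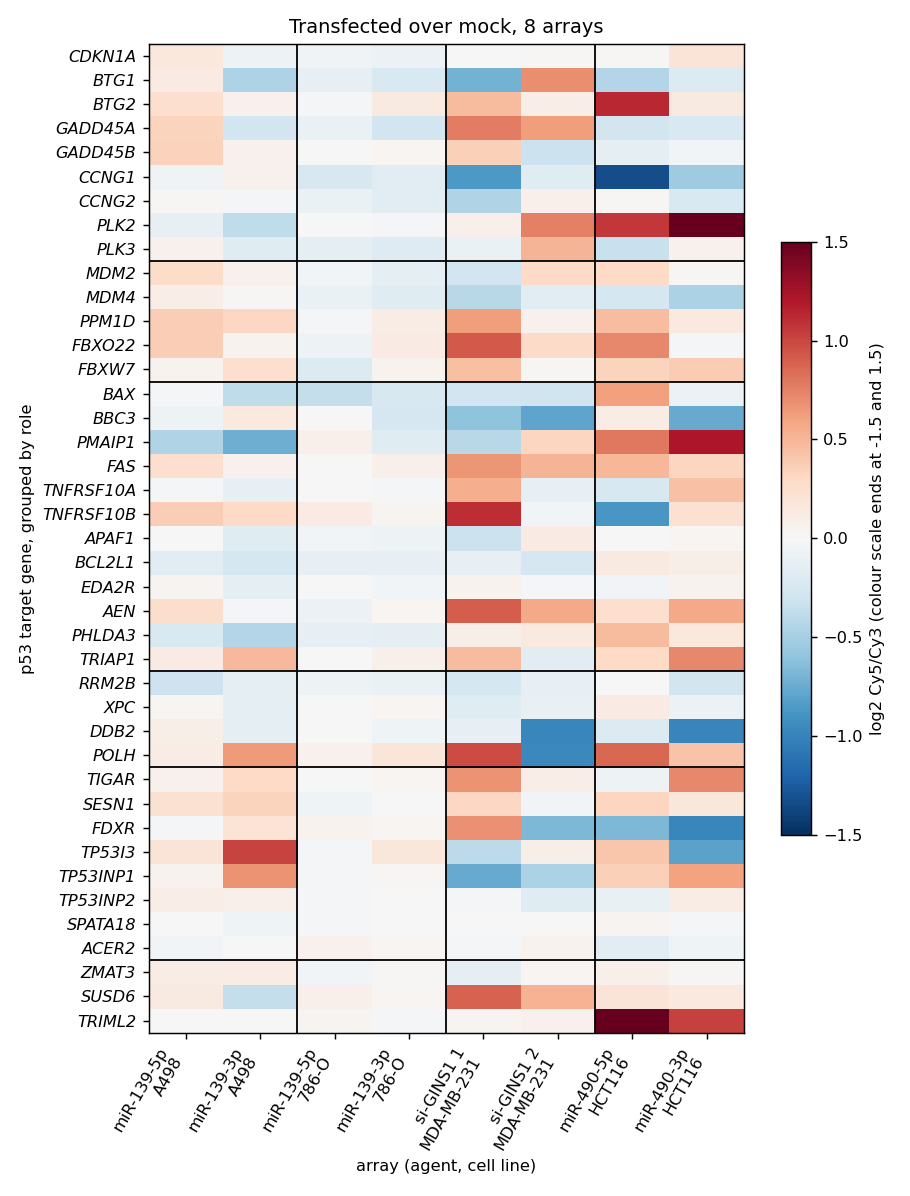
Log2 ratio of transfected over mock cells for the 41 p53 target genes (rows, grouped by role with black lines between cell cycle arrest, feedback, apoptosis, DNA repair, metabolism and other) on the 8 arrays (columns, grouped by cell line). The 786-O columns are the palest, and the strongest colours are in HCT116 (PLK2, PMAIP1, TRIML2 and CCNG1) and MDA-MB-231.

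The heat map of ratios shows how far the arrays differed in the size of their response. Over all genes measured, the SD of the log2 ratio was 0.103 and 0.105 in 786-O, 0.139 and 0.185 in A498, 0.311 and 0.287 in HCT116 and 0.392 and 0.334 in MDA-MB-231. Over the 41 genes it was 0.0899 and 0.120 in 786-O, 0.181 and 0.330 in A498, 0.579 and 0.523 in HCT116 and 0.523 and 0.404 in MDA-MB-231. No p53 target gene reached a log2 ratio of 1 in either direction in 786-O. Hardly any gene did so in this line. On its 5p array 7 of 19040 genes measured (0.0368%) were at or below -1. On its 3p array the count was 5 of 19148 (0.0261%). No gene measured was at or above 1 on these arrays, so this absence does not set the p53 target genes apart. CDKN1A stayed between -0.09 and 0.19 on all 8 arrays, and MDM2 between -0.29 and 0.30 at its brightest probe and between -0.60 and 0.51 at its other probes. The single probe of CDKN1A was dim in all lines, so any change on it would come out smaller than it is. No gene was above 0 on all 8 arrays, and RRM2B, between -0.31 and -0.01, was below 0 on all of them at its brightest probe. The second probe of RRM2B did not share this, with ratios from -0.14 to 0.18. Because no array had its dyes swapped, a bias of a probe toward Cy3 or Cy5 would look the same on every array.

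The renal lines received the same strands of miR-139, and here A498 minus 786-O could be tested. None of the 34 genes tested passed an adjusted p of 0.05, and 12 of 22183 probes did (0.0541%), all lower in A498. At an unadjusted p under 0.05 stood 13 of the 34, 10 of them higher in A498 and 3 lower, where 6.51% of all probes tested did. These counts moved with the scaling, to 9 higher and 0 lower with scaling by the median and to 2 higher and 1 lower with the scanner's own log ratios. The median of the 41 genes was 0.11, against 0.00 for all probes. In A498 the log2 ratio of TP53I3 was 0.19 after the 5p strand and 1.01 after the 3p strand, and in 786-O it was -0.03 and 0.17. Its difference of 0.53 ± 0.13 (unadjusted p = 0.0039, adjusted p = 0.403 in limma) was the highest of the genes tested, and its second probe gave 0.18, 0.92, 0.06 and 0.16. SESN1 read 0.23 and 0.34 in A498 and -0.07 and 0.01 in 786-O, a difference of 0.31 ± 0.08. PPM1D read 0.37 and 0.31 against -0.03 and 0.12, and MDM2 0.27 and 0.06 against -0.04 and -0.14. All 5 feedback genes, MDM2, MDM4, PPM1D, FBXO22 and FBXW7, had differences above 0 at their brightest probes, between 0.19 and 0.30. Not all other probes did: a second MDM2 probe read 0.10 and -0.06 in A498 and 0.04 and 0.05 in 786-O, and the dim second probe of FBXO22 read -0.09 and -0.03 against -0.01 and -0.01. PMAIP1 went the other way, at -0.45 and -0.73 in A498 and 0.07 and -0.18 in 786-O. Its difference of -0.54 ± 0.08 had the lowest p of the 41 genes (unadjusted p = 0.00014, adjusted p = 0.116 in limma). PLK2 at -0.23 ± 0.09 and PHLDA3 at -0.20 ± 0.09 followed. Scaling by the median in place of loess gave a median of 0.32 for the 41 genes and 0.07 for all probes, and with it PLK2 and PHLDA3 turned to 0.02. The fit left 1 residual degree of freedom.

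**Figure D4:**
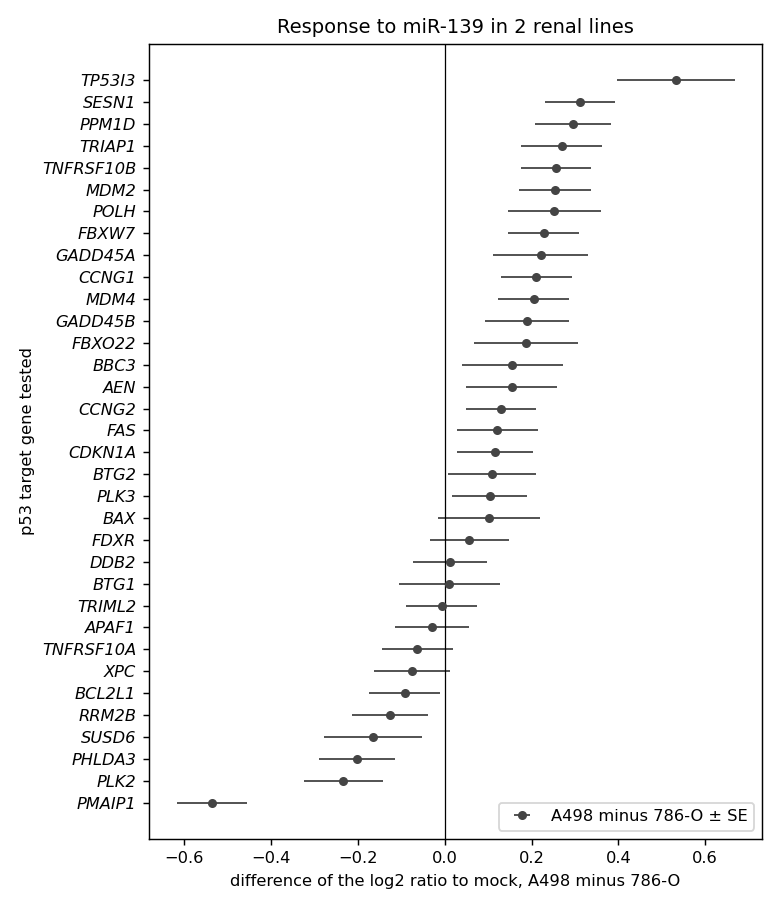
Difference between A498 and 786-O in the log2 ratio to mock for the 34 p53 target genes tested, over both strands of miR-139 (point, with bars for the standard error; 2 arrays a line). TP53I3 lies highest at 0.53 and PMAIP1 lowest at -0.54, and most of the genes lie above 0.

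Each strand of miR-139 was also tested against mock over the renal lines. With miR-139-5p none of 35 genes passed, and none had an unadjusted p under 0.05, while 3 of 23291 probes passed (0.0129%). The extremes were RRM2B at -0.19, PMAIP1 and BAX at -0.19 and TNFRSF10B at 0.25, GADD45B and PPM1D at 0.17. With miR-139-3p none of 35 genes passed and none of 22815 probes did (0%), while at an unadjusted p under 0.05 stood 4 of the 35 and 1014 of all probes. The 4 were PHLDA3 at -0.29, BAX at -0.31, BCL2L1 at -0.20 and TP53I3 at 0.59. The lowest value with this strand was PMAIP1 at -0.45, followed by BTG1 at -0.35, and after TP53I3 the highest were POLH at 0.41 and TRIAP1 at 0.28. In A498 the strands differed most for TP53I3, by 0.82 from miR-139-5p to miR-139-3p, TP53INP1, by 0.62, and GADD45A, by -0.61. With 1 array each these are values without a test.

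Knockdown of GINS1 itself passed the test (mean log2 ratio -1.61 ± 0.15 SE, adjusted p = 0.0174 in limma). In these MDA-MB-231 cells, a p53 mutant line, calls were made in 5 of the 38 genes tested, 4 higher and 1 lower, which is 13.2%, against 6.97% of 27808 probes. The higher ones were AEN, FAS, GADD45A and SUSD6. FAS had log2 ratios of 0.66 with siRNA 1 and 0.51 with siRNA 2 (mean 0.58 ± 0.08 SE, adjusted p = 0.026 in limma). GADD45A had 0.77 and 0.63 (0.70 ± 0.11, adjusted p = 0.037), AEN 0.90 and 0.57 (0.73 ± 0.12, adjusted p = 0.037) and SUSD6 0.89 and 0.52 (0.71 ± 0.13, adjusted p = 0.048), all from the same limma fit. BBC3 fell, with ratios of -0.60 and -0.79 (mean -0.70 ± 0.11, adjusted p = 0.036 in limma). For each of these genes both siRNAs gave the same sign and at least 0.51 in size. Other probes of FAS gave 0.66 and 0.39, and 0.21 and 0.17, and the second probe of AEN gave 0.34 and 0.27. FAS and SUSD6 were above 0 on 7 of the 8 arrays of the series. CDKN1A was at 0.00 and 0.01 and MDM2 at -0.29 and 0.30. The CDKN1A probe was dim in mock cells of this line, at 6.13, so any change would come out smaller than it is. The median of the 41 genes was 0.01, as it was over all probes, and scaling by the median moved these to 0.22 and 0.13.

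These 5 calls lay close to the threshold, and all kept their sign under every setting tried. Their p-values rest on a spread pooled over the miR-139 and si-GINS1 groups, so they do not measure the spread in MDA-MB-231 alone. Over all genes the SD of the log2 ratio was 0.103 to 0.185 on the miR-139 arrays of the renal lines. It was 0.392 and 0.334 in MDA-MB-231. With the scanner's own log ratios or with the si-GINS1 arrays alone none of the 41 genes was called, with scaling by the median 2 were (SUSD6 and PLK2, both higher), with the mean of the other lines' arrays taken off only GADD45A was (adjusted p = 0.029 in limma), without the filter on dim probes only FAS was, and leaving out siRNA 1 or siRNA 2 gave 11 and 20 calls.

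The siRNAs gave opposite or unequal ratios for other genes. POLH was at 0.98 with siRNA 1 and -0.97 with siRNA 2, FDXR at 0.68 and -0.67, and BTG1 at -0.71 and 0.69. The second probe of BTG1 gave -0.63 and 0.66, and that of POLH 0.46 and -0.27. TNFRSF10B was at 1.1 and -0.05, and DDB2 at -0.13 and -0.98. In 18 of the 41 genes the siRNAs lay on opposite sides of 0, and in 4 they differed by 1 log2 unit or more. Of the 41, 38 were well above background on each of these arrays. The counts were not made over all genes, so they do not set the p53 target genes apart. The labels give a different siRNA for each array, so a difference between the siRNAs and a difference between the transfections cannot be told apart.

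**Figure D5:**
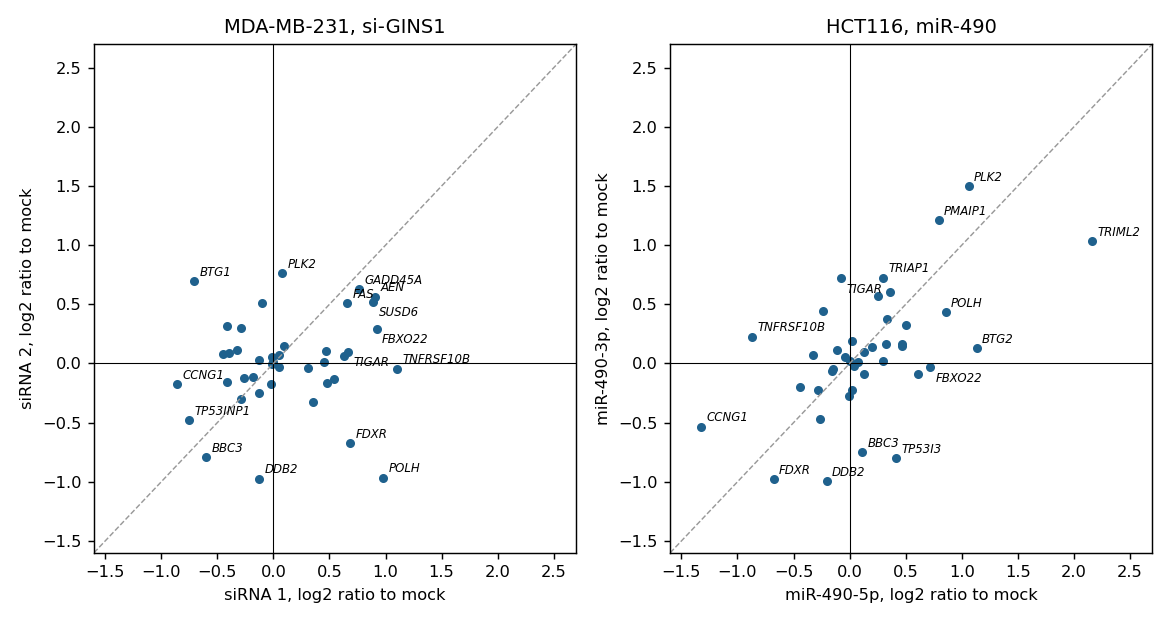
Log2 ratio to mock of the 41 p53 target genes on the 2 arrays of MDA-MB-231 (left, siRNA 1 against siRNA 2) and the 2 arrays of HCT116 (right, miR-490-5p against miR-490-3p), with the dashed line of equal values and names for genes at 0.65 or more in size on either array. POLH and FDXR lie in the lower right of the left panel, where the siRNAs disagree, and PLK2, PMAIP1 and TRIML2 in the upper right of the right panel.

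In HCT116, a p53 wild-type line, each strand of miR-490 had 1 array, so values were read by a rule of size, a log2 ratio of at least 1 in either direction, with no test. With miR-490-5p 3 of the 41 genes were at or above 1 and 1 at or below -1, beside 0.309% and 1.1% of the 21044 genes measured. TRIML2 was at 2.17, a 4.49-fold ratio, BTG2 at 1.13 and PLK2 at 1.06, and CCNG1 was at -1.33. The second probe of CCNG1 gave -0.60. With miR-490-3p 3 genes were at or above 1 and none at or below -1, beside 0.412% and 0.665% of 21363 genes. They were PLK2 at 1.50, PMAIP1 at 1.21 and TRIML2 at 1.03. PLK2 and TRIML2 passed with both strands, and PMAIP1 was at 0.79 after the 5p strand. DDB2 and FDXR lay just short of the rule on the miR-490-3p array, at -0.99 and -0.98. Both passed it with an offset of 10, without background correction and with the scanner's own log ratios. The paper on these HCT116 cells lists FDXR among its candidate targets of miR-490-3p. That list was drawn in part from these same array data, so the listing is not independent of the ratio given here. The second probe of DDB2, which is dimmer, gave -0.16. Both arrays had mock cells of the same line as reference, and whether these were 1 extract is not stated.

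The strands differed by -1.21 for TP53I3, which was at 0.41 for the 5p and -0.80 for the 3p strand, and its second probe gave 0.50 and -0.86. BBC3 was at 0.11 and -0.75, and TNFRSF10B at -0.87 and 0.23. MDM2 was at 0.30 and 0.02, and CDKN1A at 0.02 and 0.19. Of the 22 other p53 targets, GDF15 was at -0.55 for the 5p and -1.24 for the 3p strand, and SFN, a 14-3-3 protein of the G2 checkpoint, at 0.03 and 1.22.

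The 63 probes of the p53 target genes were searched for the reverse complement of each seed, 7 bases on the strand of the probe. These were ACTGTAG for miR-139-5p, CGTCTCC for miR-139-3p, ATCCATG for miR-490-5p and CCAGGTT for miR-490-3p, and they occur in 0.32%, 0.168%, 0.448% and 0.39% of all 58201 probes. A single match was found, for miR-490-3p in the probe of FDXR (NM_004110), the gene with a ratio of -0.98 on that array. It is shown with the match in capitals and its position on hg19.
FDXR probe (chr17:72858650-72858679, minus strand): ctggactgtggagggtcaCCAGGTTgggaa
FDXR was also at -0.68 with miR-490-5p, whose seed has no match in this probe. A probe covers 60 bases of its transcript, so the search says nothing about the rest of it, and no site was tested.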

How the data were processed

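The 41 genes, the further lists and the tests were chosen with earlier results of these data known. Per the file headers, the authors scanned 1 slide with Agilent Feature Extraction. They deposited intensity columns, the mean brightness of each spot and its median local background in both channels, not normalized. The scanner software's log10 value of Cy5 relative to Cy3 was deposited too, and the series table repeats it (largest difference 0). Each array had 62976 spots, 2075 of them controls, and 112 to 194 outlier spots were left out. No spot was saturated.

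Background was corrected by normexp with an offset of 50 in limma 3.58.1 (R 4.3.3), log2 ratios were normalized by loess within arrays, and log2 Cy3 levels by quantiles between arrays. Spots of a probe were averaged, and the brightest probe stood for a gene. The mock test used the mean of both Cy3 channels of a line for probes well above background in at least 2 lines. Ratios against mock were fitted on all 8 arrays with a coefficient per group (3 residual degrees of freedom), and A498 minus 786-O with strand as a block. A probe entered a ratio test if either channel exceeded background on every array used. p-values were adjusted by Benjamini-Hochberg over all probes, with a call under 0.05. The replicates of the miR-139 groups are cell lines and those of si-GINS1 are siRNAs. The labels do not say whether the arrays of a line shared 1 mock extract, so p-values measure only the spread between these arrays. In the fit of all 8 arrays that spread is pooled over the miR-139 and si-GINS1 groups. Because mock RNA was the reference on every array, tests of a ratio do not see how mock cells vary. No array carried a control oligonucleotide. In a ratio to mock, an effect of an agent's sequence and an effect of any small RNA therefore cannot be told apart. The number of arrays limits the precision. Genes named were CDKN1A, MDM2, those called or at a log2 ratio of 1, the extremes of each comparison and the related pairs, with the remaining genes given by their levels. The array annotation names genes on hg19. The fits were tested on simulated data. A further list is not reported here. Python 3.11.15 and matplotlib 3.10.9 were used for sequences and figures. Alternatives were an offset of 10, no background correction, other scalings, the scanner's values, gene medians, no filter on dim probes, other fits, removal of the mean ratio of other arrays as a dye bias, and leaving out lines or arrays.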

Additional observations from a re-analysis of the deposited data

Results flagged for a closer look

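The median log2 ratio of the 41 p53 target genes to mock lay above 0 on both miR-139 arrays of A498, at 0.06 for the 5p and 0.00349 for the 3p strand, and below 0 on both of 786-O, at -0.03 and -0.00839. Every array of one line thus lay on the other side of 0 from every array of the other line. The medians over all genes measured on these arrays were 0.00705 and 0.0052 in A498 and 0.00124 and 0.00625 in 786-O, so that the value for the 3p strand in A498 lay below the median of its own array, as did both values of 786-O. The medians over all genes hold only genes well above background, while those of the p53 target genes hold all 41. In 786-O, 35 of the 41 were well above background on each array. For the 41 genes the difference between the lines in the mean of their medians was 0.0521, and this difference of medians was not tested. Taken gene by gene, the difference between the lines passed for none of the 34 genes tested in limma.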

How the results depend on the processing

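The mock comparison kept 22 genes with both wild-type lines above, the same 22, with an offset of 10, without background correction and with the scanner's processed signal, and had 23 with scaling to the 75th percentile, 20 of them shared. The median difference, 0.86, was 1.222 with an offset of 10 and 1.534 with the scanner's signal, and leaving out a line gave 0.4082 to 1.333. Genes with both wild-type lines below numbered 2 under the 75th percentile, 0 with gene medians and 2 to 7 without a line. Leaving out a line moved BTG1 between -1.29 and 0.5571, POLH between -0.282 and 0.118 and TP53INP2 between -0.4357 and 0.06295, across 0. For the responses of wild-type against mutant lines the median was 0.08894 with median scaling, 0.09095 with the scanner's ratios and 0.00786 to 0.08159 without a line, and FDXR ran from -0.8526 to 0.07379, GADD45A from -0.8111 to 0.08159 and PLK2 from -0.4505 to 1.079. For A498 minus 786-O the median was 0.1857 with an offset of 10, 0.1715 without background correction, 0.3163 with median scaling and 0.2071 with the scanner's ratios. Median scaling turned PLK2 to 0.02263 and PHLDA3 to 0.01818. The probes called there ranged from 0 to 85.

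With si-GINS1, 2 of the 41 genes were called under median scaling, 0 with the scanner's ratios, 1 without the filter on dim probes, 0 on the group's arrays alone, 1 with the dye bias removed and 11 to 20 with 1 siRNA left out, where the lone array is assumed to vary like the other groups. All probes called ranged from 0 to 9393 (1937 as reported). Of these, 47.9% were higher as reported and 90.4% under median scaling, 35.3% with an offset of 10 and 21.3% with the scanner's ratios. The median over the 41 genes was -0.01538 with an offset of 10, -0.008461 without background correction, 0.2201 with median scaling and -0.02732 with the dye bias removed. For miR-139-5p, median scaling turned PMAIP1 to 0.01594 and BAX to 0.02901, removal of the dye bias turned PPM1D to -0.1579, and without 1 array PMAIP1 ran from -0.4514 to 0.07347 and PPM1D from -0.02944 to 0.3666. For miR-139-3p, TRIAP1 turned to -0.05211 with the dye bias removed. Genes at or below -1 with miR-490-5p numbered 0 with gene medians and 2 with the dye bias removed, and with miR-490-3p 2 with an offset of 10 or without background correction, 3 with the scanner's ratios and 1 with the dye bias removed. The causes were not tested. Of the values that answer a comparison, 105 under an alternative lay within the spread between replicates, or 1.5 times for counts, and 35 did not. Probes near background limit the dim genes, whose differences come out smaller than they are.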
